A study of Mus musculus with 9 samples.

Results

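This comparison sets 3 RNA-seq libraries of mouse calvarial osteoblasts at day 4 of differentiation (Ob_d4) against 3 libraries of the same kind of culture at day 0 (Ob_d0). These were 6 of the 9 libraries of the series, chosen by their sample titles alone, and the 3 day 7 libraries (Ob_d7) are given only beside them. The cells came from the calvaria of C57BL/6 pups of postnatal day 2 to 3 by the labels and were grown to confluency, while the methods give C57BL/6J and an age of P1 to P5. Day 0 cells had no differentiation, whereas day 4 cells were kept for 4 days, and day 7 cells for 7 days, under mineralizing conditions (β-glycerol phosphate plus ascorbic acid, renewed every day). No deletion or drug is named for any group. The methods list both wild-type and ColI-GFP transgenic pups and do not state which were used for RNA-seq. Primary calvarial cultures are pools of cells from several pups and hold other cell types beside osteoblasts. Mineralized cultures were taken up with collagenase I before trypsin and non-mineralized ones with trypsin alone, so the way of harvest may also have differed between the stages. The study calls the libraries of a stage biological replicates, but neither it nor the labels tell whether they came from separate cell isolations, so the spread between them may be partly technical.

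Osteoblasts build bone in a fixed order. Proliferating precursors under the transcription factors Runx2 and Sp7 stop dividing, secrete and crosslink type I collagen, and then make the phosphate-handling enzymes and acidic proteins with which the collagen mineralizes. Ascorbic acid is the cofactor of the prolyl hydroxylases that collagen needs, and β-glycerol phosphate is a source of phosphate for the tissue-nonspecific alkaline phosphatase.

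Levels are given as RPKM (reads scaled by gene length and library total) divided by a median-of-ratios factor of the library, and differences as the day 4 minus the day 0 mean of log2(rescaled CPM + 0.5), with a standard error (SE, 3 libraries a stage). Day 4 was deposited in tables of its own and was sequenced more deeply, with 32820610 to 37306090 reads on genes against 7741098 to 14012989 at day 0, so stage, table and depth cannot be told apart. The same holds for day 7 against day 4, since day 7 shares its tables with day 0. Therefore no p-value is given across the tables, tests of recovered reads serve only as alternatives, and a gene was called higher or lower only when every day 4 library lay on one side of every day 0 library. For 3 against 3 libraries an exact two-sided permutation test cannot go below p = 0.1. Day 0 replicate 3 stood apart, with the fewest reads and 18.97% of its CPM on 4 loci with ribosomal RNA-like sequence (Gm42418, Lars2, Mir6236 and Gm15564), against 2.13% to 4.85% in the other 5 libraries.

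Of 40526 genes in both sets of tables, 12800 had a mean of at least 1 CPM over the 6 libraries. Every day 4 library was above every day 0 library for 3607 of them (28.2%) and below for 3532 (27.6%). Counts of members in the gene lists below cover tested members only and are to be read beside these shares. A member with few or no reads at day 0 passes the limit of 1 CPM only through day 4 and cannot then be called lower. Differences of at least 2-fold were mostly upward. In all, 847 genes (6.62%) were at least 2-fold higher and 253 (1.98%) at least 2-fold lower, so that 77% of the genes past 2-fold were higher at day 4. The median difference over all genes tested was −0.01 on the log2 scale, a value that the rescaling itself largely sets. In CPM as deposited it was −0.05. With the reads of each library thinned to the smallest total, 858 and 262 genes passed the same limits, and without day 0 replicate 3 they numbered 885 and 247. At day 7, the mean of 824 of the 847 genes lay above that of day 0 and 604 were still at least 2-fold higher, while 242 had come within 2-fold of day 0. Of the 253 lower genes, 246 lay below day 0 at day 7 and 183 remained at least 2-fold lower.

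**Figure D1:**
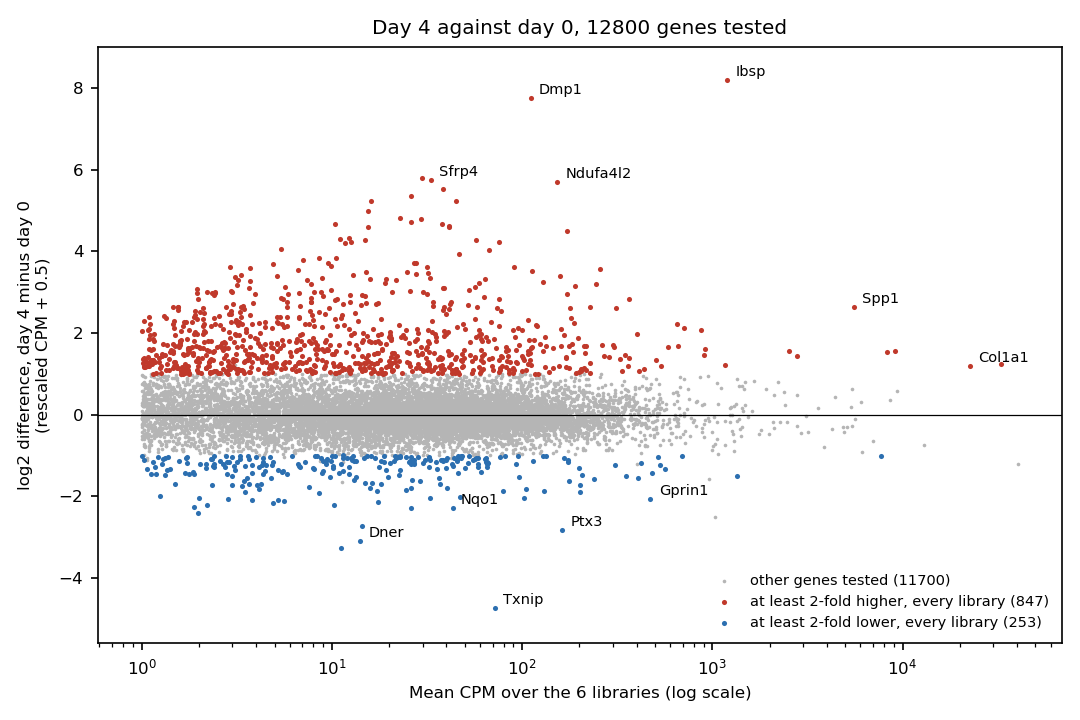
Each point is 1 of 12800 genes, with its mean CPM over the 6 libraries on a log axis against its log2 difference, day 4 minus day 0. Red points (847) were at least 2-fold higher and blue points (253) at least 2-fold lower in every day 4 library; Ibsp and Dmp1 lie highest and Txnip lowest.

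The 10 genes with the largest differences among those of at least 10 CPM were Ibsp, Dmp1, Col22a1, Sfrp4, Ndufa4l2, Miat, Col13a1, Cox4i2, Ptprz1 and Ramp1. They comprise acidic bone proteins, less common collagens, a secreted Wnt antagonist, oxygen-regulated respiratory chain subunits, a long noncoding RNA, a receptor phosphatase and the accessory protein of the CGRP receptor, with log2 differences from 4.99 to 8.20. The 10 most lowered genes were Txnip, Gm29340, Dner, Ptx3, Ostn, Nqo1, Ptchd4, Tspan13, Adam22 and Gprin1, from −4.73 to −2.07. For Gprin1, the libraries of each stage ranked as their share of ribosomal RNA-like loci did. At day 0, shares of 4.33%, 4.59% and 18.97% went with 57.9, 60.9 and 498 RPKM. At day 4, shares of 4.85%, 4.18% and 2.13% went with 38.1, 35.9 and 17.1 RPKM. At day 7, shares of 1.65%, 12% and 0.173% went with 23.5, 179 and 3.53 RPKM. Other genes at least 2-fold lower ranked the same way at each stage, among them Cadps2, Tmem163, Zdhhc22 and Tenm2. Cadps2 had 77, 84.2 and 572 RPKM at day 0 and 72.6, 67.8 and 33 RPKM at day 4. The part of those loci in the lower day 4 levels of such genes was not tested.

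**Figure D2:**
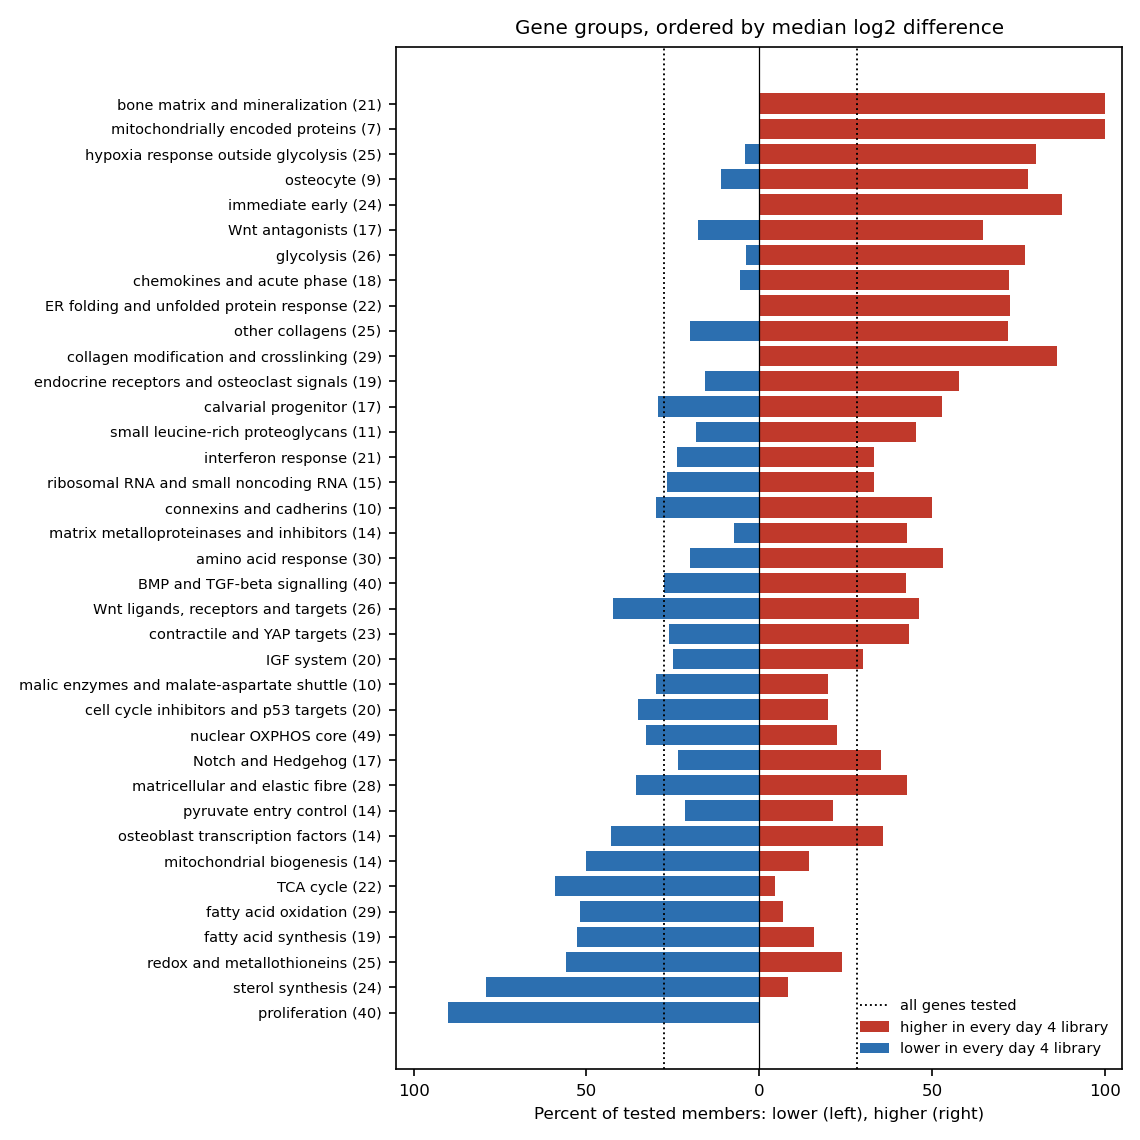
Bars give, for 37 gene groups with the number of tested members in brackets, the percent of members higher (right, red) or lower (left, blue) in every day 4 library, ordered by the median log2 difference. Dotted lines mark the shares over all genes tested, 28.2% and 27.6%; bone matrix genes and mitochondrially encoded proteins are at the top and proliferation genes at the bottom.

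Short sequences known as targets of transcription factors were counted in the stretch before the start of transcription. Promoters are those of RefSeq on GRCm38.p6, with 250 bases before the start, and 10025 of the 12800 tested genes had one. Both strands were searched for 8 motifs, TGTGGT of Runx factors, ACGTG of the hypoxia response element, CACGTG of the E-box, which contains the one before it, TGACTCA of AP-1, TGACGTCA of CREB, TTTGAA of cell cycle genes, TCACCCCAC of sterol-regulated genes and TGATGCAA of the composite C/EBP-ATF element of ATF4. TGTGGT or its complement was in 5 of 16 bone matrix and mineralization promoters (31.25%) and in 10.25% of all tested ones. Its share was 11.81% in genes at least 2-fold higher and 14.29% in genes at least 2-fold lower. Among lists that were mostly lower, it was in 4 of 14 fatty acid synthesis promoters (28.57%) and 1 of 25 fatty acid oxidation promoters (4%). The ACGTG core was found in 12 of 20 promoters of hypoxia response genes (60%) and in 10 of 25 of glycolysis genes (40%), against 22.16% of all tested. Lists that were not higher as a group also varied. The core was in 7 of 17 IGF system promoters (41.18%), 10 of 32 proliferation promoters (31.25%) and 1 of 25 fatty acid oxidation promoters (4%). ACGTG was no more common in the 618 promoters of genes at least 2-fold higher (22.17%). TGATGCAA was in 7 of 26 promoters of amino acid response genes (26.92%) and in 0.4888% of all tested. TTTGAA was in 8 of 32 proliferation promoters (25%, against 10.42%), TGACGTCA in 2 of 19 immediate early promoters (10.53%, against 2.863%), and TCACCCCAC in 1 of 16 sterol synthesis promoters. For the genes at least 2-fold higher, TGACTCA was in 6.958% of promoters against 2.873% of all tested, and CACGTG in 9.223% against 8.628%. A match is a description of letters and not a shown binding site.

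Promoters are printed for genes with a match that are described further down, and bases inside an annotated exon were left out. In Bglap (osteocalcin, chr3:88384467-88384716, reverse strand), Spp1 (osteopontin, chr5:104434861-104435110, forward strand) and Enpp1 (the pyrophosphate-forming ectoenzyme, chr10:24712160-24712409, reverse strand) the capitals mark the Runx match, whose first base lies 132, 128 and 144 bases before the start.
Bglap: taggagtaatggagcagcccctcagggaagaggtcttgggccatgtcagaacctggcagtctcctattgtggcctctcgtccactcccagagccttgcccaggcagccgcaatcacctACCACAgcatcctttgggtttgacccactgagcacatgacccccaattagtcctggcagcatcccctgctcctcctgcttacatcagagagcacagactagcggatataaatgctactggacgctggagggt
Spp1: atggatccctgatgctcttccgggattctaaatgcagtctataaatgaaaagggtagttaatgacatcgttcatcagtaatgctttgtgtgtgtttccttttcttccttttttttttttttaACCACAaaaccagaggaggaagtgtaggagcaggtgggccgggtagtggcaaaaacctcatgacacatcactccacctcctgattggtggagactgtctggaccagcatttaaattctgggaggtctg
Enpp1: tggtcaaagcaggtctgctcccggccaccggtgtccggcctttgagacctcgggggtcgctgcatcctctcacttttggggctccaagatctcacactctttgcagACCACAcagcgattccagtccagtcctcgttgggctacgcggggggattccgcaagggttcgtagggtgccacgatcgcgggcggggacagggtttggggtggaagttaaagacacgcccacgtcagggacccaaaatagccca
Ibsp, the gene with the largest difference, had no TGTGGT or ACCACA within its 250 bases.

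In Pgk1 (phosphoglycerate kinase, chrX:106186850-106187099, forward strand), Bnip3 (a mitophagy receptor, chr7:138909520-138909756, reverse strand) and P4ha2 (a collagen prolyl hydroxylase subunit, chr11:54100674-54100923, forward strand) the capitals mark ACGTG or CACGT. The Pgk1 matches begin 150 and 131 bases before the start, those of Bnip3 overlap in 1 E-box 108 bases before it, and that of P4ha2 begins 78 bases before it.
Pgk1: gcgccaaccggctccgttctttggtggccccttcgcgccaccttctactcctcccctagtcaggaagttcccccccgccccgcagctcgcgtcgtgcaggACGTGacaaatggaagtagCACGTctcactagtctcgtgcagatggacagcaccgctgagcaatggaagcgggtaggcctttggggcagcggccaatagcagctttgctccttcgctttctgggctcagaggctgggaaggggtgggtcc
Bnip3: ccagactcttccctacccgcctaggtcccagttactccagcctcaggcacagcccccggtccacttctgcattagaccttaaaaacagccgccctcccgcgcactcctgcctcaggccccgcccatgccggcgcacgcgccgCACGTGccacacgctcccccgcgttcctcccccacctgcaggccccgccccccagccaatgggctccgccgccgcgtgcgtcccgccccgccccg
P4ha2: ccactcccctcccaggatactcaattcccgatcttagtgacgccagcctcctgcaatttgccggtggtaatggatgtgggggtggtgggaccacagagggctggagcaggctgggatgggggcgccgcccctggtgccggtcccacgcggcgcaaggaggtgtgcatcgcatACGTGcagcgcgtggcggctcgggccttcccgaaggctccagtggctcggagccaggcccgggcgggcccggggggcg

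In Chac1 (a glutathione-degrading enzyme, chr2:119350992-119351228, forward strand) and Atf3 (a stress-induced transcription factor, chr1:191183341-191183583, reverse strand) the capitals mark the C/EBP-ATF match, which begins 193 and 110 bases before the start.
Chac1: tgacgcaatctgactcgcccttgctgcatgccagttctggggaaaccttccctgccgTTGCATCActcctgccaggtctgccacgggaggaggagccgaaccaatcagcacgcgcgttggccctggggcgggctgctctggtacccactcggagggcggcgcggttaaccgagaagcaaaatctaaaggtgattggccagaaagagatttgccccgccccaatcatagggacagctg
Atf3: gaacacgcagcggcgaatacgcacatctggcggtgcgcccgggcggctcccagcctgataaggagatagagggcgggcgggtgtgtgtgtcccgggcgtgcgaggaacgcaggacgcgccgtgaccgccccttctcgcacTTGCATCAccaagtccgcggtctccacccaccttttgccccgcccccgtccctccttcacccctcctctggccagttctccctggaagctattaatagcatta

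All 21 tested genes of bone matrix and mineralization were higher in every day 4 library, 18 of them at least 2-fold, with a median log2 difference of 2.62. For 1 of them no day 0 library had more than 3 reads, so it was tested only through its day 4 level. Dspp, the dentin sialoprotein gene, is listed at 0 in all 6 libraries. Ibsp encodes bone sialoprotein, which nucleates hydroxyapatite, and lies on chromosome 5 of GRCm38 from 104299171 to 104311469 beside Dmp1, Mepe and Spp1. Ibsp had 3.06, 3.21 and 5.24 RPKM at day 0 and 985, 1351 and 1186 RPKM at day 4, a log2 difference of 8.20 (SE 0.27), and reached 2431 to 3276 RPKM at day 7. Dmp1, a phosphoprotein of late osteoblasts and osteocytes, had 0.14, 0.138 and 0.323 RPKM at day 0 against 73.1, 103 and 68.7 RPKM at day 4, a log2 difference of 7.75 (SE 0.28). Its 3 day 7 values, 124, 76.5 and 61.4 RPKM, overlapped those of day 4.

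Spp1 was among the most abundant bone matrix messengers already at day 0, with 1000, 767 and 1078 RPKM, and had 5109, 6772 and 5597 RPKM at day 4. At day 7 every library, from 2903 to 4133 RPKM, was below every day 4 library. Osteocalcin, the abundant Gla protein of mature osteoblasts, had a lower level of its gene Bglap at day 4 than at day 7. Bglap had 0.313, 0.617 and 0.721 RPKM at day 0, 29.2, 33.6 and 37.7 RPKM at day 4 and 129, 185 and 162 RPKM at day 7. Bglap2 had 13.2 to 15.9 RPKM at day 4, but 56.6% of the 50-base words of Bglap and 88.2% of those of Bglap2 also occur in other osteocalcin genes. Only uniquely aligned reads were counted, so reads from shared words may be left out and the levels of both genes may be too low. Ifitm5, an osteoblast membrane protein, followed the same course, with 0.912 to 1.4 RPKM at day 0, 30 to 37.2 RPKM at day 4 and 132 to 152 RPKM at day 7. Another gene on the same strand covers 29.7% of its exonic bases, so its level is uncertain.

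The genes that set the balance of phosphate and pyrophosphate were all higher, on both sides of it. Alpl, the alkaline phosphatase that cleaves pyrophosphate, had 10.4, 9.24 and 9.61 RPKM at day 0 and 74.1, 83.4 and 72.2 RPKM at day 4, a log2 difference of 2.96 (SE 0.08). Enpp1, which makes pyrophosphate, had 2.21, 1.36 and 1.8 RPKM against 17.8, 23.1 and 20.7 RPKM, a log2 difference of 3.51 (SE 0.23). At day 7 Alpl had 180 to 244 RPKM while Enpp1 had 7.22 to 9.88 RPKM. Ank, a membrane protein of pyrophosphate release, had 21.3 to 27.3 RPKM at day 0 and 63.3 to 84.2 RPKM at day 4. Smpd3, a sphingomyelinase needed for mineralization, had 0.251, 0.311 and 0.317 RPKM at day 0 and 14.8, 7 and 11.7 RPKM at day 4. Phex, an endopeptidase of phosphate regulation, had 0.118 to 0.246 RPKM against 5.68 to 9.88 RPKM. Phospho1, the phosphatase of matrix vesicles, had 0.318 to 0.376 RPKM and 1.46 to 1.87 RPKM, but 89.6% of its exonic bases are also annotated to other genes on the same strand. The type I collagen chains were already high at day 0. Col1a1 had 1585, 2252 and 2590 RPKM and 4462, 5122 and 4740 RPKM at day 4 (log2 difference 1.18, SE 0.22), and Col1a2 differed by 1.24 (SE 0.11). Sparc, osteonectin, differed by 0.58 (SE 0.09) from 2037 to 2329 RPKM at day 0, and Mgp, an inhibitor of mineral growth, by 1.11 (SE 0.16). The phosphate transporters Slc20a1 and Slc20a2 differed by 1.08 (SE 0.25) and 0.63 (SE 0.11). The smallest difference of the group belonged to Fam20c, the kinase that phosphorylates secreted bone proteins, at 0.53 (SE 0.15).

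**Figure D3:**
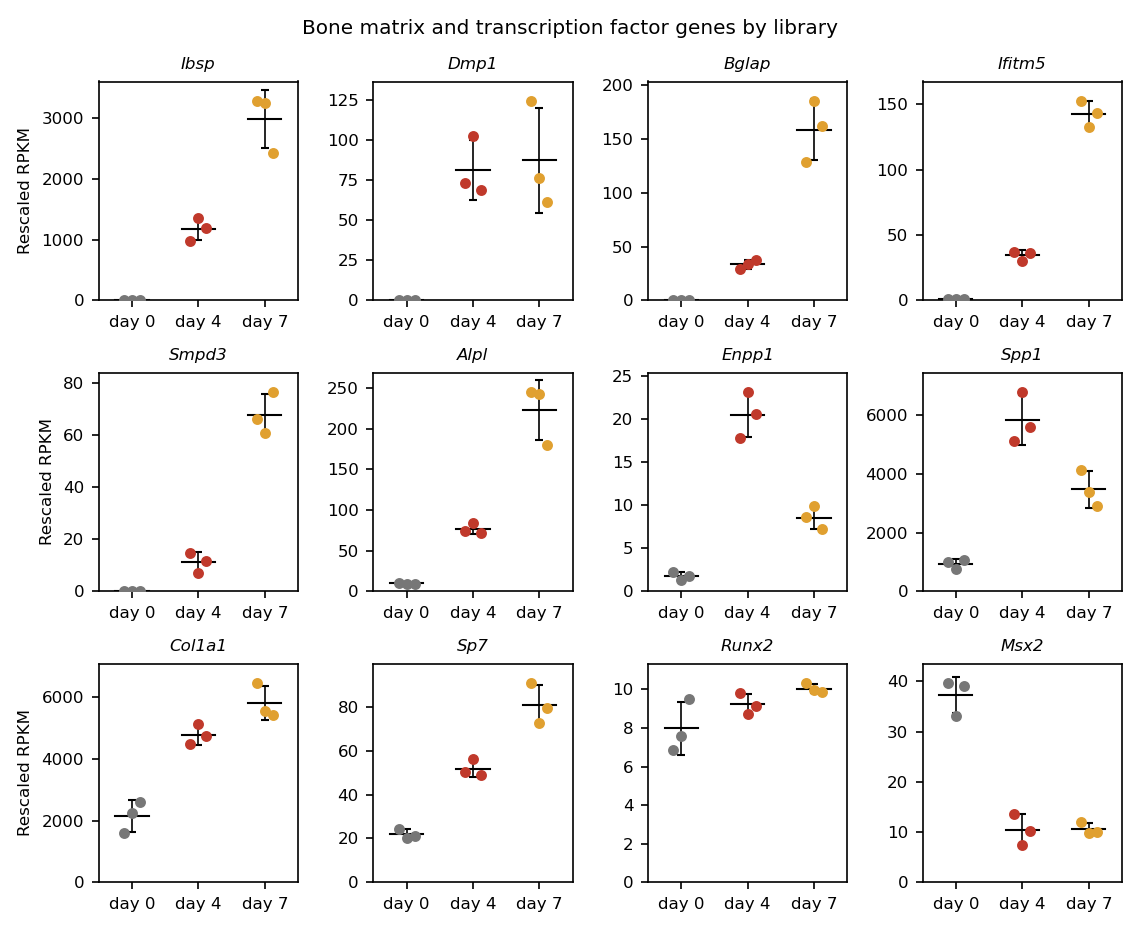
Points give the rescaled RPKM of each library at day 0 (grey), day 4 (red) and day 7 (yellow) for 12 genes, with the mean (line) and SD (bars, n = 3 a stage), each panel on its own axis from 0. Ibsp, Bglap, Ifitm5, Smpd3 and Alpl are higher at day 7 than at day 4, Enpp1 and Spp1 are highest at day 4, Runx2 overlaps between day 0 and day 4 and Msx2 is highest at day 0.

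The osteoblast transcription factors did not move as a block, with 5 of 14 higher, 6 lower and 3 overlapping. Runx2, the master regulator of the lineage, had 6.85, 7.58 and 9.53 RPKM at day 0 and 9.8, 8.71 and 9.16 RPKM at day 4. These overlapped in the rescaled values through day 0 replicate 3, and without that library Runx2 was called higher (log2 difference 0.35, against 0.22 with it), as it also was in CPM as deposited (0.18). Sp7, which acts downstream of Runx2, had 24.5, 20.4 and 21 RPKM against 50.3, 56 and 49.1 RPKM, a log2 difference of 1.23 (SE 0.10). Mef2c had 4.61 to 5.98 RPKM and 22.5 to 32.5 RPKM. Dlx3, a homeobox factor of late osteoblasts, had at most 3 reads in a day 0 library and 1.68 to 1.87 RPKM at day 4, which is at least 15.9-fold higher taking 3 reads a library as the floor. Atf4, a factor of amino acid supply and osteocalcin expression, had 297, 306 and 301 RPKM and 416, 461 and 448 RPKM, a log2 difference of 0.55 (SE 0.05). On the lower side stood the homeobox genes of the skull primordia. Msx2 had 39.6, 33.2 and 39.1 RPKM at day 0 and 13.6, 7.38 and 10.3 RPKM at day 4, a log2 difference of −1.86 (SE 0.26), and Msx1 differed by −1.16 (SE 0.20). Dlx5 (−0.36, SE 0.11), Dlx6 (−0.29, SE 0.13), Zfhx4 (−0.56, SE 0.13) and the Sp7 relative Sp3 (−0.23, SE 0.09) were lower by less than 2-fold. Cbfb, the partner of Runx2, and Foxo1 overlapped.

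Among genes of calvarial progenitors 9 of 17 were higher and 5 lower, the latter near the 27.6% of all genes tested. Gli1, a Hedgehog target that marks suture stem cells, had 0.229 to 0.324 RPKM at day 0 and 2.65 to 2.98 RPKM at day 4 (log2 difference 2.82, SE 0.11). Pdgfra, a mesenchymal growth factor receptor, was lowest of the group at −0.82 (SE 0.11). For osteocyte genes, 7 of 9 tested were higher, Irx5, a homeobox gene, overlapped and Ostn, the secreted peptide osteocrin of young osteoblasts, was lower. Ostn had 14.1, 21.6 and 14.2 RPKM at day 0 and 0.989, 6.81 and 1.33 RPKM at day 4. The day 4 libraries spread widely, with replicate 2 above the other two, while all lay below day 0. Sost, the sclerostin gene of mature osteocytes, was below the level tested, with 0, 1 and 1 reads at day 0 and 10, 5 and 4 reads at day 4. These reads are not scaled for the greater depth of the day 4 libraries. Pdpn is listed at 0.

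Genes for making and crosslinking collagen were higher as a group. Of 29 genes for collagen modification, 25 were higher and none was lower, with a median log2 difference of 0.55, and the count was 21 higher and 1 lower in CPM as deposited. P4ha2 had 16.1, 13.1 and 12.9 RPKM at day 0 and 73.9, 135 and 101 RPKM at day 4, a log2 difference of 2.84 (SE 0.27). P4ha1, the other catalytic subunit of the ascorbate-dependent prolyl 4-hydroxylase, had 100 to 119 RPKM and 281 to 397 RPKM. P3h2, a prolyl 3-hydroxylase, had the largest difference of the group, 3.32 (SE 0.24), and 28.4% of its exonic bases are overlapped by an antisense gene, which cannot be separated because the strandedness of counting is not given in the sources used here. Lox, which crosslinks collagen, had 310, 340 and 352 RPKM and 495, 659 and 596 RPKM. Serpinh1, the collagen chaperone HSP47, was high throughout, from 2032 to 2058 RPKM at day 0 and from 2195 to 2495 RPKM at day 4, and its groups overlapped in CPM as deposited.

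Of the 25 other collagens, 18 were higher and 5 lower (median 0.61). Col22a1 had 0.0772, 0.058 and 0.0484 RPKM at day 0 and 4.78, 8.58 and 6.1 RPKM at day 4 (log2 difference 5.79, SE 0.26). Col13a1, a transmembrane collagen, had 0.0701 to 0.281 RPKM and 10.5 to 12.3 RPKM and was at 42.8 to 54.3 RPKM at day 7. Fibrillar Col3a1 had 442, 536 and 442 RPKM against 1357, 1367 and 1435 RPKM. The 5 lower collagens were Col4a1 and Col4a2, the basement membrane pair, Col8a2, Col18a1 and Col14a1. Col4a1 had 165 to 198 RPKM at day 0 and 112 to 129 RPKM at day 4, and Col14a1 was lowest at −1.28 (SE 0.18).

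The rest of the matrix was mixed. Small leucine-rich proteoglycans had 5 of 11 higher and 2 lower, and 7 higher and 1 lower in CPM as deposited. Omd, which binds mineral, had 7.25 to 8.18 RPKM at day 0 and 25.1 to 31.4 RPKM at day 4, whereas Podn, podocan, had 18.5 to 25 RPKM and 9.66 to 11.2 RPKM. Of 14 matrix metalloproteinases and inhibitors, 6 were higher and 1 lower. The inhibitor Timp1 had 281, 232 and 270 RPKM and 1090, 1255 and 1279 RPKM, a log2 difference of 2.21 (SE 0.11). Mmp13, the collagenase of bone, had 43.5 to 60.8 RPKM against 129 to 198 RPKM, and Mmp15 was the lower one at −1.27 (SE 0.14). Matricellular and elastic fibre genes divided into 12 higher and 10 lower of 28. Eln, elastin, had 5.29 to 7.41 RPKM at day 0 and 31.2 to 48.2 RPKM at day 4, while Fbn2, fibrillin-2 of the microfibrils that elastin is laid on, had 37.5 to 45.5 RPKM and 13.6 to 23.6 RPKM. Thbs1, thrombospondin-1, was lower, with 1707, 1438 and 1878 RPKM at day 0 and 1096, 590 and 882 RPKM at day 4. Of connexins, pannexins and cadherins, 5 of 10 were higher. Panx3, a hemichannel of differentiating osteoblasts, had 2.23 to 3.86 RPKM and 42.3 to 52.6 RPKM, and Cdh11, the osteoblast cadherin, had 364 to 423 RPKM and 192 to 243 RPKM.

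Genes of protein folding in the endoplasmic reticulum were higher in 16 of 22 cases and lower in none (median 0.78). Hspa5, the chaperone BiP, had 391, 365 and 314 RPKM at day 0 and 713, 1478 and 1088 RPKM at day 4, a log2 difference of 1.56 (SE 0.32). Creld2, an induced folding factor, had 33.6 to 39.6 RPKM and 86.2, 183 and 134 RPKM. In both genes day 4 replicate 2 was highest and replicate 1 lowest. The smallest called difference was that of Ern1, the stress sensor IRE1α (0.43, SE 0.14). Amino acid response genes had 16 of 30 higher and 6 lower (median 0.21). Atf3 had 3.74 to 4.88 RPKM at day 0 and 15.7 to 17.1 RPKM at day 4, Nupr1, a stress-induced chromatin protein, 39.7 to 43.3 RPKM and 119 to 145 RPKM, and Chac1 44.5 to 53.1 RPKM and 85.3 to 91 RPKM. Other well-known targets of ATF4 lay elsewhere. Asns, asparagine synthetase, overlapped at 131 to 150 RPKM against 120 to 146 RPKM, and Slc7a5, a transporter of large amino acids, was lowest at −0.45 (SE 0.12). Of the 7 genes whose promoter held TGATGCAA, 4 were higher (Atf3, Nupr1, Chac1, Fgf21), 2 lower (Aars, Slc7a11) and Pycr1 overlapped.

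Genes that cells use in low oxygen, where HIF proteins escape prolyl hydroxylation, were higher in 20 of 25 cases outside glycolysis, 15 of them at least 2-fold, with a median of 1.60. Ndufa4l2, which lowers complex I activity, had 5.04, 6.27 and 5.11 RPKM at day 0 and 226, 411 and 316 RPKM at day 4, a log2 difference of 5.69 (SE 0.27). Cox4i2, the low-oxygen isoform of a cytochrome oxidase subunit, had 0.41, 0.29 and 0.565 RPKM against 24.7, 59.9 and 39 RPKM. Car9, a carbonic anhydrase, had 2.51 to 3.98 RPKM and 38.9, 94.6 and 57.5 RPKM. Egln3, the inducible prolyl hydroxylase of HIF, had 1.39 to 2.13 RPKM and 25, 63.8 and 37.4 RPKM. In all 4 genes the day 4 libraries kept the order of replicate 1, 3 and 2 from lowest to highest, and none came near day 0. Bnip3, whose promoter is printed above, had 8.26 to 9.75 RPKM and 38.5, 76 and 57.3 RPKM. Vegfa, the angiogenic factor, had 27.6 to 29.9 RPKM and 80.2 to 106 RPKM. Only Ddit4 was lower (−0.33, SE 0.10), while Adm, Arnt, Cited2 and Epas1 overlapped.

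Of 26 glycolysis genes, 20 were higher, 12 of them at least 2-fold, and 1 was lower (median 0.96). Slc16a3, which exports lactate, differed most, with 9.69, 7.17 and 5.75 RPKM at day 0 and 68.1, 111 and 91.3 RPKM at day 4, a log2 difference of 3.57 (SE 0.30). Slc2a1, the glucose transporter GLUT1, had 22.7, 20.2 and 23.6 RPKM against 75.4, 149 and 106 RPKM, and its relative Slc2a3 had 0.829 to 0.984 RPKM against 5.67 to 10 RPKM. Aldoc, an aldolase, had 1.13, 0.841 and 1.27 RPKM against 7.83, 17.5 and 11.8 RPKM (log2 difference 3.29, SE 0.37). Hk2, a hexokinase, had 8.63 to 9.6 RPKM and 25.3 to 32.9 RPKM, and Ldha, which reduces pyruvate to lactate, had 212 to 223 RPKM and 362 to 471 RPKM. The exception was Ldhb, the heart-type lactate dehydrogenase subunit, with 7.69, 8.88 and 8.23 RPKM at day 0 and 3.21, 2.74 and 3.01 RPKM at day 4 (log2 difference −1.38, SE 0.08). Pgk1, Gapdh, Pkm and Ldhb share 53.9%, 24.7%, 25.8% and 21% of their 50-base words with other annotated genes, so their levels are uncertain.

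**Figure D4:**
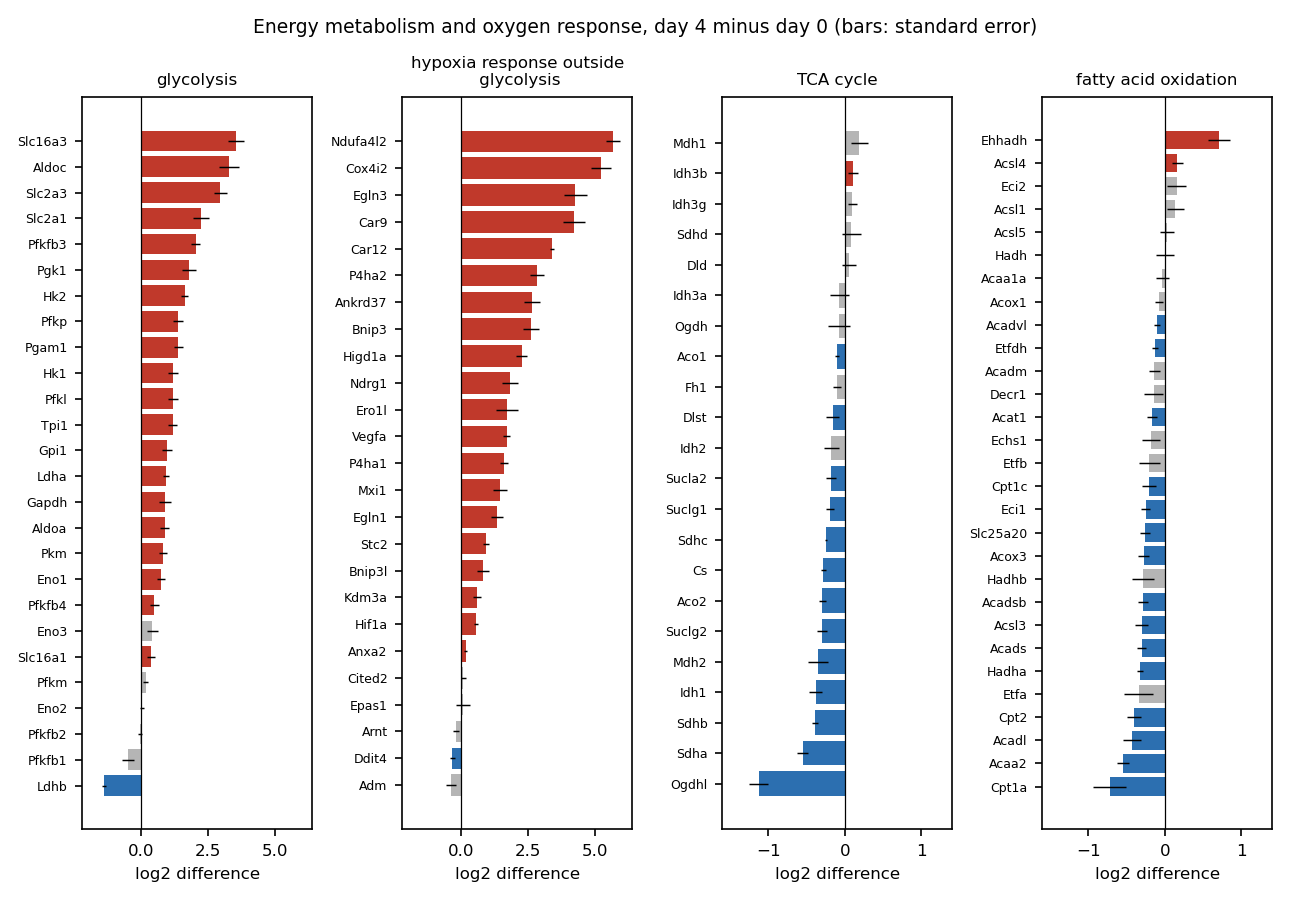
Bars give the log2 difference, day 4 minus day 0, of each tested gene of 4 groups with its standard error (3 libraries a stage), red where every day 4 library was higher, blue where every one was lower and grey where the libraries overlapped; the 2 panels on the right have a narrower axis. Glycolysis and hypoxia genes reach differences above 3, whereas TCA cycle and fatty acid oxidation genes lie between −1.13 and 0.71.

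At the entry of pyruvate into mitochondria 3 of 14 genes were higher and 3 lower, beside 28.2% and 27.6% of all genes tested. Pdk1, the kinase that shuts pyruvate dehydrogenase, had 8.04, 7.58 and 6.74 RPKM at day 0 and 28.9, 49.9 and 39.1 RPKM at day 4, a log2 difference of 2.36 (SE 0.24). Pcx, pyruvate carboxylase, had 20, 20.9 and 22.5 RPKM against 9.32, 9.56 and 9.22 RPKM (−1.16, SE 0.05). The subunits of the dehydrogenase itself (Pdha1, Pdhb, Dlat, Dld) overlapped. Of 22 TCA cycle genes, 13 were lower and 1, Idh3b at 0.11, higher, with a median of −0.18. In CPM as deposited 7 were lower and none higher. Sdha, the flavoprotein of succinate dehydrogenase, had 47.4, 55.5 and 51.8 RPKM and 36.1, 33.8 and 35.6 RPKM, and Ogdhl, an isoform of a 2-oxoglutarate dehydrogenase subunit, was lowest at −1.13 (SE 0.12).

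Fatty acid oxidation was similar, with 15 of 29 lower and 2 higher (median −0.20), or 8 and 1 in CPM as deposited. Cpt1a, which admits long-chain fatty acids to mitochondria, had 9.15, 8.91 and 12.4 RPKM at day 0 and 7.27, 4.99 and 6.14 RPKM at day 4 (−0.72, SE 0.22), and peroxisomal Ehhadh was higher at 0.71 (SE 0.15). Of the 10 malic enzyme and malate-aspartate shuttle genes, 2 were higher, 3 lower and 5 overlapping, with 0 past 2-fold and a median of −0.02. Me2 had the largest difference among them. Me2, the mitochondrial NAD-dependent malic enzyme, had 18.6, 18.8 and 17.6 RPKM at day 0 and 36.1, 36.1 and 35.9 RPKM at day 4, a log2 difference of 0.97 (SE 0.03), with 48 to 54 RPKM at day 7. The aspartate-glutamate carrier Slc25a12 was lowest (−0.41, SE 0.05). Cytosolic Me1 overlapped, at 12.1 to 14.4 RPKM against 12.2 to 13.1 RPKM, and Me3 was under 0.2 RPKM in all libraries. Me1 shares 22.9% of its 50-base words with other annotated genes, so its level is uncertain.

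The transcripts of the mitochondrial genome were higher, whereas nuclear genes of the same complexes had no common direction. All 7 tested messengers of mitochondrial DNA were higher, with a median of 1.65, and their share of CPM was 0.672% to 0.754% at day 4 against 0.225% to 0.263% at day 0. Of the other 6, mt-Nd3 was below the level tested and mt-Nd4l, mt-Co2, mt-Co3, mt-Atp6 and mt-Atp8 are listed at 0. The subunit gene mt-Nd2 had 43.4, 49.5 and 53.1 RPKM at day 0, 265, 320 and 314 RPKM at day 4 and 85.6 to 112 RPKM at day 7. For mt-Co1 the values were 1004, 937 and 989 RPKM and 2370, 2902 and 2673 RPKM, with 51.1% of its 50-base words also in nuclear copies. The smallest difference of the 7 was that of mt-Nd5 (1.39, SE 0.12). The mitochondrial ribosomal RNAs mt-Rnr1 and mt-Rnr2 overlapped between the stages. Of 49 nuclear genes of oxidative phosphorylation 11 were higher and 16 lower, beside 28.2% and 27.6% of all genes tested. Their median was −0.04, with called differences up to that of Ndufv3, an accessory subunit of complex I (0.77, SE 0.15). Genes of mitochondrial biogenesis had 7 of 14 lower and 2 higher, but 2 and 0 in CPM as deposited. Twnk, the mitochondrial helicase, was higher (0.30, SE 0.07) but overlapped in CPM as deposited, and Polrmt, the mitochondrial RNA polymerase, differed by −0.31 (SE 0.13). Ppargc1a, the coactivator PGC-1α, was below the level tested, at 0.0574 to 0.179 RPKM at day 0 and 0.0496 to 0.0553 RPKM at day 4.

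Sterol synthesis genes were lower in 19 of 24 cases and higher in 2, with a median of −0.41. Hmgcs1, which makes HMG-CoA, had 117, 128 and 107 RPKM at day 0 and 57.6, 59.3 and 75.8 RPKM at day 4 (−0.88, SE 0.15). Fatty acid synthesis had 10 of 19 lower and 3 higher. The elongase Elovl6 had 11.5 to 12.4 RPKM and 4.77 to 5.56 RPKM, and the desaturase Scd1 was higher, with 26.5 to 30.3 RPKM against 44 to 53.4 RPKM.

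Proliferation genes were lower in 36 of 40 cases and higher in none, but mostly by less than 2-fold (median −0.80, with 7 past 2-fold). Mcm5, a subunit of the replicative helicase, had 20.7, 21.8 and 18.8 RPKM at day 0 and 10.2, 6.15 and 8.64 RPKM at day 4 (−1.31, SE 0.22). Kif20a, a kinesin of cytokinesis, had 23.1 to 24.2 RPKM and 8.78 to 11.7 RPKM, and Mki67, the proliferation antigen, 12.5 to 14.8 RPKM and 6.46 to 9.24 RPKM. An antisense gene overlaps 29.3% of the exonic bases of Kif20a. The replication licensing gene Cdc6 had the smallest called difference (−0.44, SE 0.23), and it overlapped in CPM as deposited. Day 4 replicate 2 was lowest in Mcm5, Kif20a and Mki67 and replicate 1 highest, the reverse of the order in the hypoxia genes named above. Over the whole lists, the median of proliferation genes against the day 0 mean was −0.54, −0.997 and −0.76 in day 4 replicates 1, 2 and 3, and that of hypoxia genes 1.14, 1.89 and 1.57. Cell cycle inhibitors and p53 targets showed no common direction, with 4 of 20 higher and 7 lower, beside 28.2% and 27.6% of all genes tested. Cdkn1a, p21, and Cdkn1b, p27, overlapped, Btg2 was higher (0.99, SE 0.11) and Sesn1 lower (−1.10, SE 0.10).

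**Figure D5:**
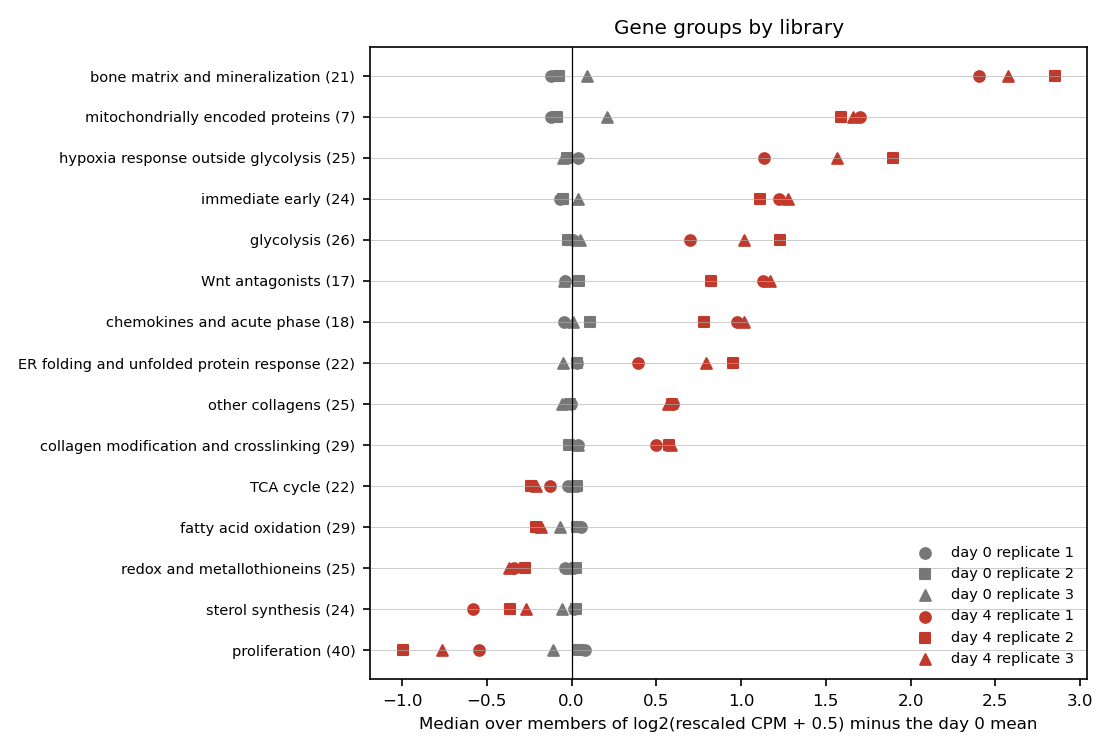
For 15 gene groups, points give the median over the tested members (number in brackets) of log2(rescaled CPM + 0.5) minus the day 0 mean, for each day 0 library (grey) and day 4 library (red), with a marker shape for each replicate number. Day 4 replicate 2 lies furthest from day 0 in hypoxia (1.89) and proliferation genes (−0.997) and replicate 1 nearest (1.14 and −0.54).

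Immediate early genes, which cells switch on within minutes of a stimulus, were higher in 21 of 24 cases, 16 at least 2-fold, and lower in none (median 1.23). Fos had 4.56, 4.18 and 5.68 RPKM at day 0, 23.3, 23.3 and 25.9 RPKM at day 4 and 4.44 to 7.07 RPKM at day 7. Nr4a1, an orphan nuclear receptor, had 3.3 to 3.9 RPKM, 14.7 to 17.9 RPKM and 4.46 to 5.8 RPKM at the 3 stages. Egr1 had 5.24, 6.42 and 9.31 RPKM at day 0 and 19.6, 13.5 and 19 RPKM at day 4, with 3.58 to 4.82 RPKM at day 7. Klf4 differed from these, since it had 14.4 to 20.4 RPKM at day 0, 40.4 to 45.7 RPKM at day 4 and 66.9 to 75.7 RPKM at day 7. Klf2 had the smallest called difference (0.15, SE 0.03) and overlapped in CPM as deposited. The heat shock genes Hspa1a and Hspa1b overlapped. Such genes can respond to the dissociation of cells, and the part of the harvest in their level was not tested.

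Genes for signals to immune cells and osteoclasts were higher more often than lower. Of 18 tested chemokine and acute phase genes, 13 were higher and 1 lower (median 0.94). Of the 32 genes of that list, 13 were below the level tested and 1 is listed at 0. Ptgs2, the inducible cyclooxygenase of prostaglandin synthesis, had 12.8, 8.27 and 10.5 RPKM at day 0, 88.2, 94.5 and 108 RPKM at day 4 and 20.3 to 33 RPKM at day 7. The chemokine Cxcl14 had 27.7 to 39.8 RPKM, 97.8 to 115 RPKM and 27.3 to 37 RPKM. The monocyte chemokine Ccl2 was the lower one at −0.53 (SE 0.30), and its groups overlapped under TMM factors. Of 19 endocrine receptors and osteoclast signals 11 were higher and 3 lower. Tnfsf11, RANKL, which drives osteoclast formation, had 0.809, 0.409 and 0.797 RPKM at day 0 and 7.77, 4.27 and 6.98 RPKM at day 4 (log2 difference 2.87, SE 0.35). Its decoy receptor Tnfrsf11b, osteoprotegerin, overlapped, with 27.3, 13.8 and 19.4 RPKM against 42.3, 24.1 and 36.3 RPKM. Pth1r, the parathyroid hormone receptor, had 28.4 to 33.4 RPKM and 88.5 to 106 RPKM. The retinoic acid receptor Rarb was lowest of these (−0.50, SE 0.22) but overlapped in CPM as deposited, with 38.4% of its exonic bases overlapped by an antisense gene. Interferon response genes had 7 of 21 higher and 5 lower, near the 28.2% and 27.6% of all genes tested. Without day 0 replicate 2, the highest day 0 library in this group, the counts were 12 and 5. With all libraries, 4 were at least 2-fold higher and 0 at least 2-fold lower, beside 6.62% and 1.98% of all genes tested. These genes ranged from the antiviral Ifit3 (1.28, SE 0.38), which shares 51.2% of its 50-base words with a copy, to the transcription factor Irf1 (−0.72, SE 0.10).

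Wnt antagonists, which are secreted proteins that bind Wnt ligands or receptors and membrane or cytoplasmic proteins that dampen the signal, were higher in 11 of 17 cases and lower in 3 (median 1.07). Sfrp4 had 0.588, 0.477 and 0.254 RPKM at day 0 and 38.6, 33.3 and 41.1 RPKM at day 4, a log2 difference of 5.73 (SE 0.23). It was at 14.7 to 20.2 RPKM at day 7, below every day 4 library. Wif1 had 2.02 to 2.63 RPKM and 20.3 to 28.2 RPKM, and rose further to 35.5 to 52.3 RPKM. Dkk1 had at most 3 reads in a day 0 library and 2.58 to 3.81 RPKM at day 4, at least 25.5-fold higher on the floor of 3 reads a library. Tmem64, a membrane protein that dampens the pathway, was lowest (−0.74, SE 0.12). Ligands, receptors and targets of the pathway were divided, with 12 of 26 higher and 11 lower. Wnt7b, a ligand that favours bone formation, had 0.202 to 0.278 RPKM and 2.73 to 5.63 RPKM, while Rspo3, which strengthens Wnt signals, had 12.9, 19.9 and 17.4 RPKM and 5.24, 4.81 and 3.92 RPKM (−1.79, SE 0.22). The common target Axin2 had 1.56 to 1.6 RPKM and 1.95 to 3.03 RPKM.

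In BMP and TGF-beta signalling 17 of 40 genes were higher and 11 lower, beside 28.2% and 27.6% of all genes tested. Bmp3, an antagonist-like ligand, had 1.02, 0.759 and 0.907 RPKM at day 0 and 25.5, 24.7 and 27.4 RPKM at day 4, a log2 difference of 4.63 (SE 0.11). Grem1, which captures BMP2 and BMP4, had 3.19, 3.29 and 3.8 RPKM and 67.2, 90 and 85.2 RPKM. Bmp2 itself had 1.98 to 2.67 RPKM and 7.91 to 11.3 RPKM, Bmp4 overlapped, and of the Id targets Id2 was higher, Id1 and Id4 lower and Id3 overlapping. The latent TGF-beta binding gene Ltbp4 was lowest at −1.41 (SE 0.26). Of 17 Notch and Hedgehog genes 6 were higher and 4 lower, not far from the same shares of all genes tested. At the 2-fold limit 5 were higher and 0 lower, beside 6.62% and 1.98% of all genes tested. Another 7 genes of that list were below the level tested. Gli1, Ptch1 and Hhip, all induced by Hedgehog signals, were higher, and Ptch1 had 1.89 to 2.21 RPKM, 5.54 to 6.41 RPKM and 13.8 to 19.4 RPKM at the 3 stages. The ligand Ihh and the transcription factors Gli2 and Gli3 overlapped, the signal transducer Smo was lower (−0.33), and the receptor Notch1 was lowest (−0.58, SE 0.12). The IGF system had 6 of 20 higher and 5 lower, shares near the 28.2% and 27.6% of all genes tested, from Igfbp3 at 1.65 (SE 0.24) to Igf2r at −1.02 (SE 0.13). Contractile and YAP target genes had 10 of 23 higher and 6 lower, from the stretch-induced Ankrd1, with 1.55 to 2.45 RPKM at day 0 and 16.9 to 32.4 RPKM at day 4, to Thbs1, given above.

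Txnip, which binds thioredoxin and limits glucose uptake, had the largest drop of all genes of at least 10 CPM. It had 39.1, 51.1 and 44.1 RPKM at day 0, 1.73, 1.22 and 1.67 RPKM at day 4 and 1.09 to 2.39 RPKM at day 7 (log2 difference −4.73, SE 0.18). Its relative Arrdc4 had 5.66 to 6.63 RPKM and 1.54 to 1.81 RPKM. Among 25 redox and metallothionein genes 14 were lower and 6 higher, or 14 and 3 in CPM as deposited. Nqo1, a quinone reductase under NRF2, had 48.2, 44.6 and 43.5 RPKM and 8.76, 8.88 and 9.33 RPKM (−2.30, SE 0.05), and the NRF2 targets Gclm, Gclc, Txnrd1, Srxn1 and Hmox1 were lower too, by 0.38 to 0.74 on the log2 scale. Higher were the plasma glutathione peroxidase Gpx3 (3.11, SE 0.35) and the metallothioneins. Mt1 had 70.7, 72.8 and 86.9 RPKM and 248, 484 and 372 RPKM, again in the order of replicates 1, 3 and 2.

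Of the other strongly lowered genes, Ptx3, the pattern recognition protein pentraxin 3, had 106, 111 and 93.2 RPKM at day 0 and 15.8, 15.2 and 12.3 RPKM at day 4. Dner, a Notch-related transmembrane protein, had 4.91, 4.81 and 6.21 RPKM and 0.62, 0.49 and 0.482 RPKM. Both stayed low at day 7, at 10.6 to 16.1 RPKM and 0.289 to 0.5 RPKM. The predicted gene Gm29340 did not, with 4.84 to 6.17 RPKM at day 0, 0.399 to 0.493 RPKM at day 4 and 0.599, 7.75 and 4.59 RPKM at day 7. Among long noncoding RNAs, H19, the imprinted host of a microRNA, had 2034, 1755 and 1573 RPKM and 4500, 6394 and 4849 RPKM, Neat1 of paraspeckles 15.3 to 17.9 RPKM and 59.4 to 73.9 RPKM, and Miat, 24.3% of whose exonic bases lie under an antisense gene, 0.0959 to 0.181 RPKM and 6.58 to 11.1 RPKM. Gas5, a host of small nucleolar RNAs, was lower (−0.40, SE 0.16).

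Markers of other cell types showed which cells the cultures may also have held. Of 15 tested macrophage markers 13 were higher and none lower (median 0.91), and their summed level was 49.1 to 81.9 RPKM at day 0 and 106 to 127 RPKM at day 4. Lyz2 made up most of it, with 33.6, 58.3 and 48.2 RPKM and 76.3, 77.5 and 69.2 RPKM, while C1qc had 1.3 to 1.97 RPKM and 3.5 to 5.47 RPKM and Ptprc, which marks all leukocytes, averaged 0.0338 and 0.106 RPKM. More cells of a type and more RNA per cell cannot be told apart in bulk RNA. Of 7 tested osteoclast markers 4 were higher, with Acp5 at 0.361 to 0.946 RPKM and 6.98 to 8.26 RPKM, and Ctsk, which calvarial cells also express, at 115 to 121 RPKM and 229 to 241 RPKM. The summed level of chondrocyte markers was 177 to 479 RPKM at day 0 and 81.8 to 216 RPKM at day 4, with 1 of 12 higher and 3 lower, and Col2a1 had 380, 128 and 182 RPKM against 146, 35.3 and 63.6 RPKM. Replicate 1 was highest in both stages. Col9a1, a cartilage collagen, was lowest (−1.43, SE 0.43) and Hapln1, a hyaluronan link protein, highest (0.37, SE 0.10). Endothelial (3 tested, 1 lower), adipocyte (4, 2 higher), skeletal muscle (2, both higher), glial and neuronal (4, 1 higher), epithelial (1, overlapping) and blood markers (none tested) each summed to at most 35.9 RPKM in any day 4 library. Among these markers Des, desmin of muscle, had 0.0396 to 0.086 RPKM and 0.885 to 1 RPKM, and Lpl, lipoprotein lipase, 0.759 to 1.75 RPKM and 2.06 to 4.16 RPKM. Des reached the level tested only through day 4 and could not have been called lower. Of the 13 muscle markers written, 9 were below the level tested and 2 are listed at 0. Of 9 tendon and meninges markers 2 were higher and 3 lower. Zic1, a factor of the meninges and skull, had 26.6 to 28.3 RPKM and 11.5 to 13 RPKM. The part of these cells in the immune and matrix results above was not tested.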

How the data were processed

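Cells were RNA-sequenced after removal of ribosomal RNA. The authors aligned the reads with STAR (2.0.4b) to Ensembl release 76 of GRCm38 and counted uniquely aligned reads per gene with featureCounts. The deposited CPM values (counts per library total) and the deposited RPKM values (CPM per kilobase of gene) lie in one table for days 0 and 7 and another for day 4. Tables were joined by gene identifier. CPM were divided by median-of-ratios factors over the 6 libraries, and genes with a mean of at least 1 CPM were kept. A pseudocount of 0.5 CPM was added before log2, so differences of low genes are understated. Every CPM value was a whole number of reads (100%, tolerance 0.1 read). Alternatives, counts only, were edgeR 4.0.16 quasi-likelihood and DESeq2 1.42.0 tests of these reads (Benjamini-Hochberg adjusted), TMM factors, thinning, other filters and pseudocounts, and leaving out each library. They called 2956 genes higher and 2624 lower with edgeR, and 2829 and 2547 with DESeq2. Scripts were tested on simulated data. Analyses used R 4.3.3 and Python 3.11.15.

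Members and gene lists were chosen with earlier results of these data known. By rule, the text names the 10 largest differences in each direction among called genes of at least 10 CPM the extremes of each list, the bone matrix genes and transcription factors, the malic enzymes, Sost, Ppargc1a and the highest markers of other cells. Other genes were chosen after their values were seen. Columns of the authors' own comparisons were not used. Some genes that the rule names are not reported here.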

Additional observations from a re-analysis of the deposited data

How the results depend on the processing

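The counts of genes higher and lower in every day 4 library (3607 and 3532) stayed within 1.5 times of these values under all alternatives except one. With edgeR and a replicate block the lower count was 2310, against 2624 without the block. The replicate numbers share no stated animal or batch, and the deviations of same-numbered libraries from their stage means correlated at 0.03, 0.08 and −0.26, so they were not taken as pairs. At a mean of at least 10 CPM, 426 and 145 genes were at least 2-fold higher and lower, since fewer genes were tested. Leaving out 1 library at a time gave 3711 to 4210 higher, 3746 to 4387 lower, 818 to 901 at least 2-fold higher and 213 to 315 at least 2-fold lower. In CPM as deposited, 2743 genes were higher and 2818 lower, and without day 0 replicate 3, 4210 and 4387, so which of these counts was larger turned. The osteoblast transcription factors went from 5 higher and 6 lower to 6 and 5 in CPM as deposited, and other lists with like numbers in both directions also turned under some settings. No named gene with a call changed the sign of its difference. Low depth at day 0 limits genes with few reads, and the choice of pseudocount moves their differences: with 0.1 in place of 0.5, 937 and 304 genes passed 2-fold, and with 1, 747 and 208.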
